A study of Mus musculus with 7 samples.

Results

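MHC class I molecules display peptides from inside a cell to CD8 T cells, and 10 mouse genes of this route were followed through single-cell RNA sequencing of the heart. They were chosen by symbol, as B2m, H2-K1, H2-D1, Tap1, Tap2, Tapbp, Psmb8, Psmb9, Nlrc5 and H2-Q10, and all 10 were found among the 32285 genes of the count tables. Hearts came from mice at 8 weeks of age or P1 (postnatal day 1), after myocardial infarction (MI) or a sham operation. The 7 libraries formed 6 groups. WT (C57BL6/J, an inbred strain) gave 1 library of 8 week MI, 1 of 8 week sham, 2 of P1 MI and 1 of P1 sham, and mice labelled MerTK KO, without the efferocytosis receptor Mertk, gave 1 of P1 MI and 1 of P1 sham. No group combined the knockout with 8 weeks of age. The labels give no time after surgery, no number of hearts per library, no strain background of the knockout and no deleted part of Mertk. Whether the 2 WT P1 MI libraries, the only replicates, came from separate animals is not labelled, so p-values measure only how far these samples differed, and that spread may be technical. Hearts were perfused and digested, and CD45+ cells (leukocytes) were enriched and mixed with other cells at 2 to 1, so shares of cell types reflect that mixing.

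A class I molecule is a heavy chain (H2-K1 and H2-D1 encode the classical ones) held by the light chain beta-2 microglobulin, encoded by B2m. Peptides are cut by the proteasome, whose immunoproteasome form carries the subunits Psmb8 and Psmb9, are carried into the endoplasmic reticulum by the Tap1 and Tap2 transporter, and are loaded with the help of tapasin (Tapbp). Nlrc5 is the transactivator of class I promoters, and interferons raise the whole route. H2-Q10 encodes a soluble class Ib heavy chain known chiefly as a product of the liver.

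Of the 10 genes, 8 lie on chromosome 17 (GRCm38, GENCODE vM21). H2-K1 (17, 33996017 to 34000347, minus strand) and H2-D1 (17, 35262730 to 35267499, plus strand) are 1.26 Mb apart. Psmb9, Tap1, Psmb8 and Tap2 fall within 34334 bases, and the divergent Psmb9 (34181987 to 34187764) and Tap1 (34187553 to 34197225) overlap by 212 bases. B2m (2, 122147686 to 122153083) is on chromosome 2, where its end is 6.55 Mb from the start of Mertk. Nlrc5 (94434356 to 94527272) is on chromosome 8. RefSeq promoters (GRCm38.p6) matched 8 of the 10 genes, and those shown are the promoters of the light chain and the heavy chains and the stretch that Tap1 and Psmb9 share. Capitals mark matches, on either strand, to GGGATTCCC (the core of enhancer A, a binding site of NF-kB), GAANNGAAA or GAAANNGAA (partial interferon response elements, which may overlap), TGACGC (the X2 box core) and CCAAT. The stretches run from 144 to 25 bases before the downstream of 2 H2-K1 starts (chr17:34000358-34000477, minus strand), 190 to 71 before H2-D1 (chr17:35262904-35263023, plus), 195 to 76 before H2-Q10 (chr17:35469894-35470013, plus) and 150 to 31 before B2m (chr2:122147537-122147656, plus). The last is the whole stretch of 225 bases between the divergent RefSeq starts of Tap1 and Psmb9 (chr17:34187331-34187555, plus).
H2-K1: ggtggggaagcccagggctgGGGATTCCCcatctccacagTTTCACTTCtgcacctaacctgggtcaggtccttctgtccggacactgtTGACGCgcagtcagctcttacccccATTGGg
H2-D1: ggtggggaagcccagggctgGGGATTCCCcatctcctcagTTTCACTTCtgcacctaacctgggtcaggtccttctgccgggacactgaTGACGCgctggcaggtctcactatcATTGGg
H2-Q10: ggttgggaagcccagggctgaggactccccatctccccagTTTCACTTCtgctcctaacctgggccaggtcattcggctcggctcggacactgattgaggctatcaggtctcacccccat
B2m: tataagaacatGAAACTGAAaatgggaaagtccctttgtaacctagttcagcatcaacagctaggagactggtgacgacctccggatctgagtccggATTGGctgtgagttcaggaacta
Tap1 and Psmb9: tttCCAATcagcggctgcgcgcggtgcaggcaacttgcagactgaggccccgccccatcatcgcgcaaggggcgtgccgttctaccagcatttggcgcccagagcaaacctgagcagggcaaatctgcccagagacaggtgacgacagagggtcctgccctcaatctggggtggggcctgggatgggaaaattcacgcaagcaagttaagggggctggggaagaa

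GGGATTCCC occurred in the 250 bases before the start of 99 of 32851 RefSeq mouse promoters (0.301%), among them H2-K1 and H2-D1. GAANNGAAA occurred in 6.31% of promoters, GAAANNGAA in 7.13%, TGACGC in 6.12% and CCAAT in 33.8%. Over 30 bases, counted from 1 at the base before GGGATTCCC, with the H2-K1 base first, H2-D1 differed by A18T, and H2-Q10 by G2A, T6C and A18C. The enhancer A core was thus present in both classical heavy chain promoters and altered at 2 places in H2-Q10. The promoters of Tapbp and Psmb8, not shown, held none of GGGATTCCC, GAANNGAAA, GAAANNGAA and TGACGC in this window. These matches describe letters and are not measured binding.

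The 44318 barcodes left 40158 cells after filtering, of which 29717 entered a gate by their marker genes. Gates held 21229 leukocytes, 4743 fibroblasts and 3745 endothelial cells, between 47 and 9077 per library. WT 8 week MI endothelium was the smallest sum, with 47 cells and 68262 UMIs (unique molecular identifiers, which count captured transcripts). Total UMIs per library were between 7707724 and 130847843, and 6.52% to 43.9% of a library's cells met no gate. Libraries shared at most 47 barcodes. The 10 leukocyte markers made up 8283 to 18149 of each 1000000 UMIs in gated leukocytes, against 38.4 to 380.1 in gated fibroblasts, as the gate required. Counts are 3′ tags and the deleted part of Mertk is not given, so Mertk counts check nothing about the genotype. Near-identical heavy chain genes may share reads, and the sources used here do not state how such reads were assigned, so values of single heavy chains are uncertain to that degree.

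Levels below are in CPM, the UMIs of a gene per 1000000 UMIs of the gated cells of a library, and they compare a gene across libraries. With 3′ tags they also rank genes without a length term. In leukocytes at P1 the heavy and light chains led, with 605 to 1223 CPM in the WT libraries for B2m, H2-K1 and H2-D1, and Psmb8 followed. Fibroblasts stood far lower at P1, and endothelium lay between these gates for most genes.

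In fibroblasts the classical heavy chains were about an order of magnitude higher at 8 weeks than at P1. H2-K1 was at 279 and 471 CPM in WT 8 week MI and sham, against 52.3 and 39.5 in MerTK KO P1 MI and sham, 41.4 and 43.0 in the WT P1 MI libraries and 24.1 in WT P1 sham. H2-D1 was at 557 and 719.7 in WT 8 week MI and sham, against 47.9 and 43.3 in MerTK KO P1 MI and sham, 61.0 and 72.6 in WT P1 MI and 48.8 in WT P1 sham. For both genes the 8 week libraries stood above all P1 libraries with a wide gap. Over all 7 libraries, with injury and genotype in the fit, the age term was a log2 fold of 3.51 ± 0.41 (SE) for H2-K1 (adjusted p = 0.0027) and 3.46 ± 0.34 for H2-D1 (adjusted p = 0.0011, edgeR's quasi-likelihood test, Benjamini-Hochberg adjusted over all genes). B2m, the light chain that both share, was at 1285 and 823 CPM in WT 8 week MI and sham fibroblasts, against 135 and 164 in MerTK KO P1 MI and sham, 209.9 and 291 in WT P1 MI and 239 in WT P1 sham. Its age term was smaller, at 2.11 ± 0.31 on the log2 scale (adjusted p = 0.0060, edgeR's quasi-likelihood test), and again no P1 library reached an 8 week one.

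The immunoproteasome subunits were low in P1 fibroblasts and several times higher at 8 weeks. Psmb8 was at 121 and 104 CPM in WT 8 week MI and sham, against 29.0 and 14.8 in MerTK KO P1 MI and sham, 10.7 and 18.9 in WT P1 MI and 3.53 in WT P1 sham. Psmb9 was at 23.8 and 31.4 in WT 8 week MI and sham, against 2.36 and 2.02 in MerTK KO P1 MI and sham, 0.37 and 3.72 in WT P1 MI and 0.59 in WT P1 sham. All P1 libraries were below both 8 week libraries for each subunit, and the age terms were 3.70 ± 0.46 for Psmb8 (adjusted p = 0.0028) and 3.88 ± 0.70 for Psmb9 (adjusted p = 0.012, edgeR's quasi-likelihood test) on the log2 scale. Without WT P1 MI replicate 1 the adjusted p of Psmb9 was 0.057.

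The loading genes did not move as 1 block. Tapbp was at 143 and 123 CPM in WT 8 week MI and sham fibroblasts, against 42.5 and 47.2 in MerTK KO P1 MI and sham, 37.3 and 25.6 in WT P1 MI and 27.9 in WT P1 sham, a log2 age term of 2.19 ± 0.25 (adjusted p = 0.0022, edgeR's quasi-likelihood test). Tap2 was at 38.9 and 28.6 in WT 8 week MI and sham, against 2.36 and 5.80 in MerTK KO P1 MI and sham, 9.98 and 8.80 in WT P1 MI and 8.23 in WT P1 sham, a log2 age term of 1.84 ± 0.34 (adjusted p = 0.014, edgeR's quasi-likelihood test). Tap1, the partner subunit, was at 17.3 and 15.9 in WT 8 week MI and sham against 8.50 to 10.00 in the 5 P1 libraries. The 8 week values of Tap1 also lay above every P1 value, but its age term of 0.82 ± 0.30 did not pass (adjusted p = 0.13, edgeR's quasi-likelihood test). Tap2 lost its call without either WT P1 MI library, under a stricter gate and with cells thinned to 1500 UMIs, where its adjusted p reached 0.22.

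Nlrc5 and H2-Q10 were at the edge of detection in fibroblasts. Nlrc5 had 1 UMI in WT 8 week MI and 18 in WT 8 week sham (1.44 CPM), against 0 and 6 in MerTK KO P1 MI and sham, 0 and 1 in WT P1 MI and 0 in WT P1 sham, and it was too low to be tested. The count of 0 in WT P1 sham allows up to 1.08 CPM (exact 95% Poisson interval). The WT 8 week sham value has its own counting error, and MerTK KO P1 sham was at 0.81 CPM. These few counts thus do not settle a difference between the ages. H2-Q10 stayed at or below 5.40 CPM in fibroblasts of every library and passed no test there.

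**Figure D1:**
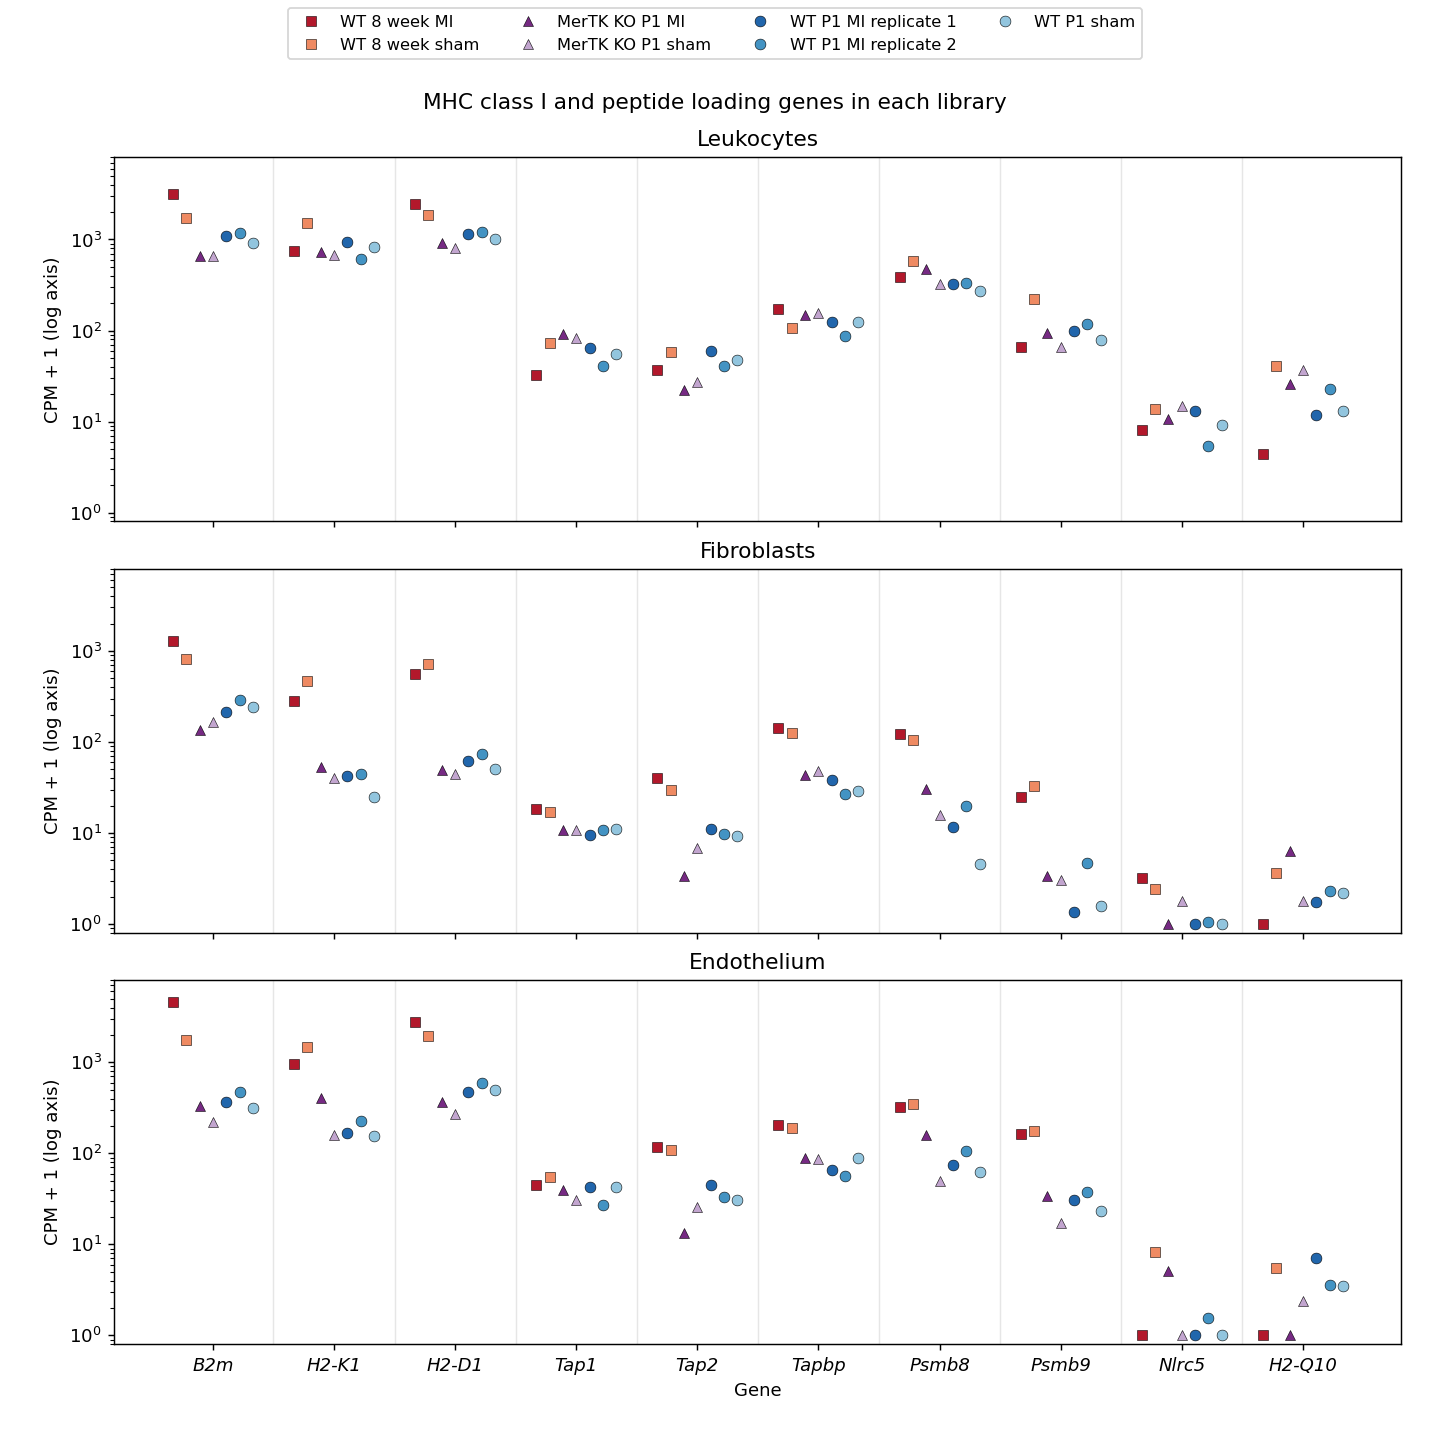
Level (CPM + 1, log axis) of each of the 10 genes in leukocytes, fibroblasts and endothelium, with 1 point for each of the 7 libraries. In fibroblasts H2-K1 and H2-D1 sit at 279 to 719.7 in the 8 week libraries and at 24.1 to 72.6 in the P1 libraries.

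Of the 9 genes that could be tested in fibroblasts, 7 rose with age, against 4.2% of all 12527 genes tested that rose. The median log2 age term of the 9 was 2.19, and −0.04 over all genes. Both 8 week libraries stood above all 5 P1 libraries for 9 of the 10 genes, beside 11.2% of the genes tested. These 9 include Nlrc5, which was too low to be tested. B2m, H2-K1, H2-D1, Tapbp and Psmb8 were called in 12 of 12 alternative analyses.

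Endothelium showed the same 7 genes higher with age, from a higher P1 level. B2m was at 4541 and 1777 CPM in WT 8 week MI and sham, against 334 and 221 in MerTK KO P1 MI and sham, 363 and 477 in WT P1 MI and 317 in WT P1 sham (log2 age term 2.86 ± 0.38, adjusted p = 1.3e-05, edgeR's quasi-likelihood test). H2-K1 was at 952 and 1471 in WT 8 week MI and sham, against 406 and 159.6 in MerTK KO P1 MI and sham, 164 and 224 in WT P1 MI and 155 in WT P1 sham (2.77 ± 0.44, adjusted p = 0.00017, edgeR's quasi-likelihood test). H2-D1 was at 2783 and 1924 in WT 8 week MI and sham, against 363 and 271 in MerTK KO P1 MI and sham, 471 and 591 in WT P1 MI and 499 in WT P1 sham (2.05 ± 0.37, adjusted p = 0.0010, edgeR's quasi-likelihood test). In each case the groups did not overlap. The age terms of B2m and H2-K1 lay within the SE of each other, and their order was not tested.

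Among the other endothelial genes, Psmb9 was at 161 and 176 CPM in WT 8 week MI and sham and at 16.4 to 36.6 at P1 (log2 age term 2.56 ± 0.41, adjusted p = 0.00022, edgeR's quasi-likelihood test). Psmb8 was at 322 and 350.4 in WT 8 week MI and sham and at 49.1 to 158 at P1 (2.21 ± 0.42, adjusted p = 0.0015, edgeR's quasi-likelihood test), with MerTK KO P1 MI the highest of the P1 libraries. Tap2 (1.53 ± 0.41, adjusted p = 0.034) and Tapbp (1.36 ± 0.37, adjusted p = 0.033, edgeR's quasi-likelihood test for both) passed narrowly. Tap1 did not pass, with 43.9 and 53.8 in WT 8 week MI and sham against 26.2 to 42.1 at P1 (0.55 ± 0.44, adjusted p = 0.64, edgeR's quasi-likelihood test). Nlrc5 had 36 UMIs in WT 8 week sham (7.25 CPM) and at most 4 UMIs in any other library, and neither it nor H2-Q10 could be tested.

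Thus 7 of the 8 genes tested in endothelium rose, beside 2.01% of all 8157 genes tested, with a median log2 age term of 2.13 against −0.04 over all genes. Tap2 and Tapbp lost the call without either WT P1 MI library, and with WT P1 MI replicate 1 left out Psmb8 lost it too, so that 4 genes were called. With thinned cells 3 genes were called. For 8 of the 10 genes both 8 week libraries lay above all P1 libraries, beside 10.1% of all genes.

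In leukocytes the chains were already high at P1, and none of the 10 genes passed the test of age, beside 0.0371% of all 13478 genes that rose and 0.0148% that fell. At an unadjusted p under 0.05 there were 2 of them, beside 2066 of all 13478 genes. DESeq2 called 2 of them, beside 422 of all genes. B2m was at 3169 and 1719.6 CPM in WT 8 week MI and sham, against 654 and 649.6 in MerTK KO P1 MI and sham, 1104 and 1178 in WT P1 MI and 903 in WT P1 sham (log2 age term 1.47 ± 0.40, adjusted p = 0.28, edgeR's quasi-likelihood test). H2-D1 was at 2456 and 1863 in WT 8 week MI and sham, against 909.7 and 813 in MerTK KO P1 MI and sham, 1145 and 1223 in WT P1 MI and 1017 in WT P1 sham (1.22 ± 0.39, adjusted p = 0.29, edgeR's quasi-likelihood test). For these genes alone did both 8 week libraries stand above all P1 libraries, 2 of 10, beside 6.83% of all genes.

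H2-K1 overlapped between the ages in leukocytes, with 738 and 1504 CPM in WT 8 week MI and sham against 605 to 938 at P1. Psmb9 lay on both sides of the P1 range, at 64.4 and 221 in WT 8 week MI and sham against 64.6 to 115.5 at P1. Tap1 was at 31.3 and 72.5 in WT 8 week MI and sham and at 40.2 to 90.0 at P1, and Tap2 at 35.5 and 57.1 against 20.97 to 58.6. Psmb8 was at 384 and 581 in WT 8 week MI and sham against 270.3 to 469.8 at P1, and Tapbp at 172 and 105 against 86.2 to 155. Leukocyte make-up differed between libraries: macrophages were 2064 of 2745 leukocytes in WT 8 week MI and 688 of 9077 in WT 8 week sham. Its part in these values was not tested. Between the sham libraries, with 5 leukocyte types weighted equally, the untested log2 ratio of 8 weeks to P1 was 0.94 for B2m, 0.98 for H2-K1 and 1.51 for Psmb9. Over all leukocytes these ratios were 0.93, 0.86 and 1.53. Tapbp went the other way, at −0.16 with equal weights and −0.23 over all leukocytes. TMM scaling moved the leukocyte median of all genes by 0.26 on the log2 scale relative to library size alone, and the uncalled age terms of Tap1, Tap2 and H2-Q10 turned negative under library size alone.

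**Figure D2:**
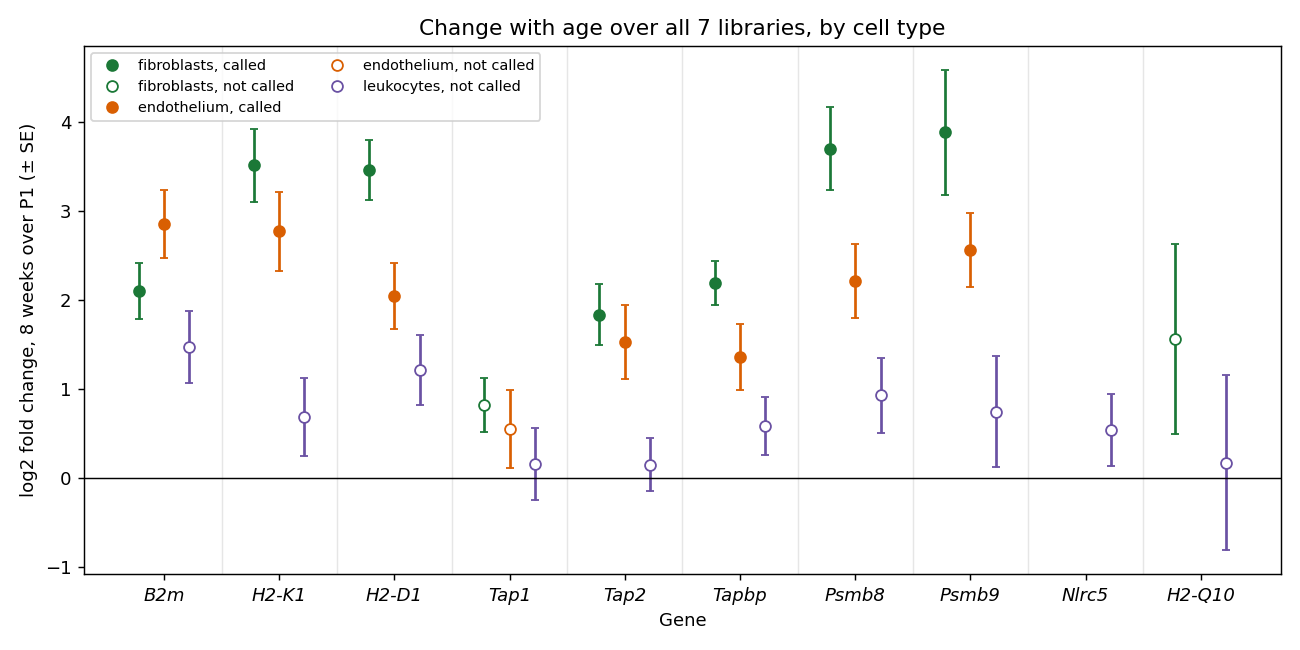
Log2 age terms (8 weeks over P1, all 7 libraries) of each gene in fibroblasts, endothelium and leukocytes, with their standard errors. The fibroblast values of H2-K1, H2-D1, Psmb8 and Psmb9 lie between 3.46 and 3.88, and the leukocyte values between 0.15 and 1.47.

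The difference between the age changes was itself tested, over 21 sums with library as a block. The rise was steeper in fibroblasts than in leukocytes for 6 of 10 genes, beside 2.32% of all genes. The excess was 3.33 ± 0.54 on the log2 scale for Psmb9 (adjusted p = 0.0012), 2.74 ± 0.36 for Psmb8 (adjusted p = 0.00014), 2.72 ± 0.32 for H2-K1 (adjusted p = 4.7e-05) and 2.17 ± 0.27 for H2-D1 (adjusted p = 0.00011), in edgeR's quasi-likelihood test. Tapbp (1.58 ± 0.30) and Tap2 (1.57 ± 0.38) were the other members, while B2m differed by 0.59 ± 0.22 and did not pass (adjusted p = 0.18, edgeR's quasi-likelihood test). Without WT P1 MI replicate 2, with macrophages in place of leukocytes, under a stricter gate and with thinned cells, Tap2 was no longer called.

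Endothelium exceeded leukocytes for 2 genes, B2m by 1.33 ± 0.23 (adjusted p = 0.0065) and H2-K1 by 1.93 ± 0.32 (adjusted p = 0.0058, edgeR's quasi-likelihood test), beside 0.364% of all genes. B2m was not called without WT P1 MI replicate 2, and neither gene was called with thinned cells. Fibroblasts exceeded endothelium for H2-D1 alone of the 10, by 1.41 ± 0.28 (adjusted p = 0.028, edgeR's quasi-likelihood test), beside 0.275% of all genes, and this call was lost without WT P1 MI replicate 2, under library size alone, under a stricter gate and with a gate on marker UMIs. For B2m the same difference was −0.74 ± 0.23 and did not pass (adjusted p = 0.23, edgeR's quasi-likelihood test).

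Several measures moved with age besides the genes. Cell Ranger was version 6.1.0 in WT 8 week sham and WT P1 MI replicate 2 and 4.0.0 in the other libraries, per the file headers. Within version 4.0.0, WT 8 week MI was set against the mean of 4 P1 libraries, 2 of them MerTK KO. Within version 6.1.0, WT 8 week sham was set against WT P1 MI replicate 2. The 2 ratios thus also differ in injury and genotype. In fibroblasts the ratio of 8 weeks to P1 was 7.08 (4.0.0) and 10.96 (6.1.0) for H2-K1. It was 11.1 and 9.92 for H2-D1, and 6.88 and 2.83 for B2m. In endothelium it was 4.31 (4.0.0) and 6.56 (6.1.0) for H2-K1 and 14.7 and 3.73 for B2m. The leukocyte ratio of H2-K1 was 0.93 within version 4.0.0 and 2.49 within version 6.1.0. Version and injury cannot be told apart at 8 weeks, so this difference in direction cannot be assigned to either. Xist, transcribed from the inactive X of females, had at most 2 UMIs per gate in the 8 week libraries and 20.0 to 1319 CPM in the P1 libraries, so sex cannot be told apart from age here.

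The level of 7 leukocyte genes outside the gate's markers was read in the other gates. In fibroblasts they stood at 4.77% of their leukocyte level in WT 8 week MI, 0.662% in WT 8 week sham and at most 0.482% in the P1 libraries. If leukocyte RNA were carried over in that proportion, which was not tested, it would make up 11.8% of the fibroblast B2m, 12.6% of the H2-K1 and 21.02% of the H2-D1 in WT 8 week MI, and 2.11% or less of each in WT 8 week sham. In endothelium the 7 genes stood at 1773 and 1454 CPM in WT 8 week MI and sham, against 164 to 803 at P1. Their leukocyte levels were 36143 and 26141 CPM in WT 8 week MI and sham, and 16258 to 80052 at P1. The part of carried-over RNA in the endothelial rise was not tested.

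The rise also appeared in the share of cells. With each cell thinned to 1500 UMIs, H2-K1 was seen in 34.1% of 123 WT 8 week MI fibroblasts and 46.2% of 1280 WT 8 week sham fibroblasts, against 2.86% to 7.69% in the P1 libraries. Before thinning these shares were 52.6% and 89.4% at 8 weeks, with median depths of 3114 and 7886.5 UMIs per cell, against 24.8% to 35.2% at P1, where median depths were 7194.5 to 16768. The thinned H2-D1 share was 46.3% and 59.9% in WT 8 week MI and sham and 3.33% to 10.3% at P1. No gated cell type lacks class I chains, so no share of a negative cell type was available beside these.

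After MI the age difference was tested against the 2 WT P1 MI libraries alone. In fibroblasts 7 of 9 genes were higher in WT 8 week MI, beside 6.74% of all genes, led by H2-D1 (log2 fold 2.98 ± 0.43), Psmb9 (2.95 ± 0.64) and Psmb8 (2.85 ± 0.39). In endothelium 3 of 8 were higher, beside 1.08% of all genes: B2m (3.10 ± 0.55, adjusted p = 6.0e-06), H2-D1 (2.06 ± 0.54, adjusted p = 0.016) and H2-K1 (1.94 ± 0.54, adjusted p = 0.024, edgeR's quasi-likelihood test), where TMM scaling moved the median of all genes by −0.32. None of 10 was called in leukocytes, beside 2.67% of all genes that rose and 3.48% that fell, with 2 at an unadjusted p under 0.05 and 1 call by DESeq2. Of all 13478 genes there, 3238 were at an unadjusted p under 0.05 and DESeq2 called 715. Between the sham libraries, 1 per age and so untested, the ratio of 8 weeks to P1 in fibroblasts was 19.5 for H2-K1 (exact 95% interval 15.7 to 24.6, counting error only), 14.7 for H2-D1 (12.6 to 17.3) and 3.44 for B2m (3.21 to 3.70). On the log2(CPM + 1) scale, past 2-fold higher in WT 8 week sham were 8 of 10 genes in fibroblasts, 8 in endothelium and 3 in leukocytes, beside 9.4%, 18.2% and 4.4% of all genes with at least 10 UMIs over both libraries.

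After MI at P1 few of the genes passed the test. In P1 fibroblasts 1 of 9 genes was called, beside 0.599% of all genes that rose: Psmb8, with 29 and 387 UMIs (10.7 and 18.9 CPM) in WT P1 MI against 12 UMIs (3.53) in WT P1 sham, a log2 fold of 2.19 ± 0.51 (adjusted p = 0.0042, edgeR's quasi-likelihood test). Both MI libraries were above the sham library, but DESeq2, the additive fit, a stricter gate and thinned cells gave no call. H2-K1 rested at 41.4 and 43.0 in WT P1 MI against 24.1 in WT P1 sham and did not pass (0.83 ± 0.44, adjusted p = 1.0, edgeR's quasi-likelihood test). In P1 endothelium and leukocytes edgeR and DESeq2 called none of the 8 and 10 genes tested, with 0 in either gate at an unadjusted p under 0.05. Of all genes, 0.38% rose and 0.159% fell in endothelium, and 0.00742% rose and 0% fell in leukocytes. At an unadjusted p under 0.05 were 406 of 8157 genes in endothelium and 622 of 13478 in leukocytes.

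At 8 weeks MI and sham were 1 library each, so the values are a description. B2m was higher in WT 8 week MI in every gate, with ratios to sham of 1.84 (1.82 to 1.87) in leukocytes, 1.56 (1.43 to 1.70) in fibroblasts and 2.56 (2.27 to 2.86) in endothelium. H2-K1 was lower in every gate, at 0.491 (0.477 to 0.506) in leukocytes, 0.592 (0.493 to 0.704) in fibroblasts and 0.647 (0.499 to 0.826) in endothelium. The light chain and H2-K1 thus stood on opposite sides of sham in each gate. H2-D1, the other classical heavy chain, was higher in MI in leukocytes (2456 against 1863 CPM) and endothelium (2783 against 1924). In fibroblasts H2-D1 was lower in MI (557 against 719.7). Leukocyte Psmb9 was at 0.291 (0.263 to 0.321) and Tap1 at 0.432 (0.373 to 0.498) of sham, while Tapbp was at 1.64 (1.54 to 1.75). With macrophages, monocytes and B cells weighted equally, the log2 ratio of MI to sham was −1.02 for Psmb9 against −1.78 over all leukocytes. It was −0.02 against −0.60 for Psmb8, and 0.61 against −0.68 for Tap2, whose mean thus turned direction. In macrophages Tap2 was still lower in MI, at 30.7 against 36.1 CPM. Only monocytes and B cells, with 130 and 50 cells in WT 8 week MI, had more Tap2 in MI. H2-K1 (−0.73), Tap1 (−1.10), Tapbp (0.65) and B2m (0.75) kept their direction. These libraries also differed in Cell Ranger version and in depth, whose part was not tested, and 4 of 10 genes were past 2-fold lower in leukocytes beside 19.6% of all genes.

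The injury response was compared between the ages as an interaction. In fibroblasts it was lower at 8 weeks for Psmb8, at −2.13 ± 0.67 on the log2 scale (adjusted p = 0.037, edgeR's quasi-likelihood test), 1 of 9 genes beside 3.12% of all genes that were lower. Its levels were 121 in MI against 104 in sham at 8 weeks, and 10.7 and 18.9 in MI against 3.53 in sham at P1. Under DESeq2, library size alone, a stricter gate and thinned cells the call was lost. Leukocytes had no call among 10 genes, nor had endothelium among 8, with 2 and 0 at an unadjusted p under 0.05 and none by DESeq2 in either gate. Of all genes, 0.223% were called higher and 0.438% lower in leukocytes, and 0.184% higher and 0.208% lower in endothelium. At an unadjusted p under 0.05 were 1495 of 13478 genes in leukocytes and 892 of 8157 in endothelium.

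Few of the genes passed the test of genotype. After MI, 1 of 9 genes was lower in MerTK KO fibroblasts, beside 1.12% of all genes that were lower: Tap2, at 2.36 CPM in MerTK KO P1 MI against 9.98 and 8.80 in WT P1 MI, a log2 fold of −1.92 ± 0.58 (adjusted p = 0.038, edgeR's quasi-likelihood test). The MerTK KO value rests on 7 UMIs, and 6 of 10 alternatives, DESeq2 and library size alone among them, gave no call. In endothelium 0 of 8 and in leukocytes 0 of 10 passed, with 2 and 1 at an unadjusted p under 0.05 and none by DESeq2. Beside these, 1.9% of all genes were higher and 0.711% lower in MerTK KO endothelium, and 0.156% higher and 0.364% lower in MerTK KO leukocytes. At an unadjusted p under 0.05 were 932 of 8157 genes in endothelium and 1443 of 13478 in leukocytes. The interaction of injury and genotype gave no call for any gene in any gate by edgeR or DESeq2, and none at an unadjusted p under 0.05. Of all genes, 0.0878% were called higher and 0.239% lower in fibroblasts, 0.049% and 0.0736% in endothelium, and 0.0445% and 0.0371% in leukocytes. At an unadjusted p under 0.05 were 320 of 12527, 323 of 8157 and 293 of 13478 genes in the same order.

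Levels across 7 finer cell types (fibroblasts, endothelium, macrophages, monocytes, neutrophils, B cells and T cells) are given as a description, since cells of 1 library share its source. Both MerTK KO libraries lay below every WT P1 library with enough cells for H2-D1 in 7 of 7 types, Tap2 in 6 and B2m in 5. In monocytes and neutrophils only 2 WT P1 libraries had enough cells, and groups of 2 and 2 fail to overlap more readily. Both lay above for Tapbp in 5 types, and for H2-K1, Tap1 and Nlrc5 in 3. In macrophages, which normally carry Mertk, H2-D1 was at 1025 and 848 CPM in MerTK KO P1 MI and sham, against 1269.6 and 1347 in WT P1 MI and 1079 in WT P1 sham. Macrophage B2m was at 919.5 and 873 in MerTK KO P1 MI and sham, against 1617.5 and 1536 in WT P1 MI and 1197 in WT P1 sham. Macrophage H2-K1 went the other way, at 1101 and 851 in MerTK KO P1 MI and sham, against 831 and 815 in WT P1 MI and 672 in WT P1 sham. Beside these, 13.9% of all macrophage genes lay below and 9.94% above in both MerTK KO libraries without overlap. Of all genes with at least 10 UMIs over the P1 libraries compared, 17.2% lay below and 19% above in monocytes, 14.6% and 16.1% in neutrophils, 12.8% and 12.7% in B cells, and 9.21% and 16.7% in T cells.

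In the 3 main gates, 3 of 10 genes lay below in both MerTK KO libraries in each gate. Of the genes tested, 21.3% did so in leukocytes, 14.2% in fibroblasts and 11.4% in endothelium. In endothelium 1 of the 3 was H2-Q10, which was too low to be tested. It was at 0 and 1.36 CPM in MerTK KO P1 MI and sham, against 2.46 to 6.01 in WT P1. Both MerTK KO libraries lay above for 3 genes in leukocytes, 1 in fibroblasts and 0 in endothelium, beside 9.83%, 17.8% and 18% of the genes tested. With 10 genes, these shares are not far from the background. Leukocyte H2-D1 was at 909.7 and 813 in MerTK KO P1 MI and sham against 1017 to 1223 in WT P1, yet its tested log2 fold after MI was 0.07 with TMM and −0.38 with library size alone. H2-K1 and Psmb9 in leukocytes flipped sign in the same way, since TMM moved the median of all genes by 0.46 there. Within Cell Ranger 4.0.0, the ratio of MerTK KO to WT P1 B2m was 0.649 in leukocytes, 0.664 in fibroblasts and 0.816 in endothelium, the last with overlap.

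**Figure D3:**
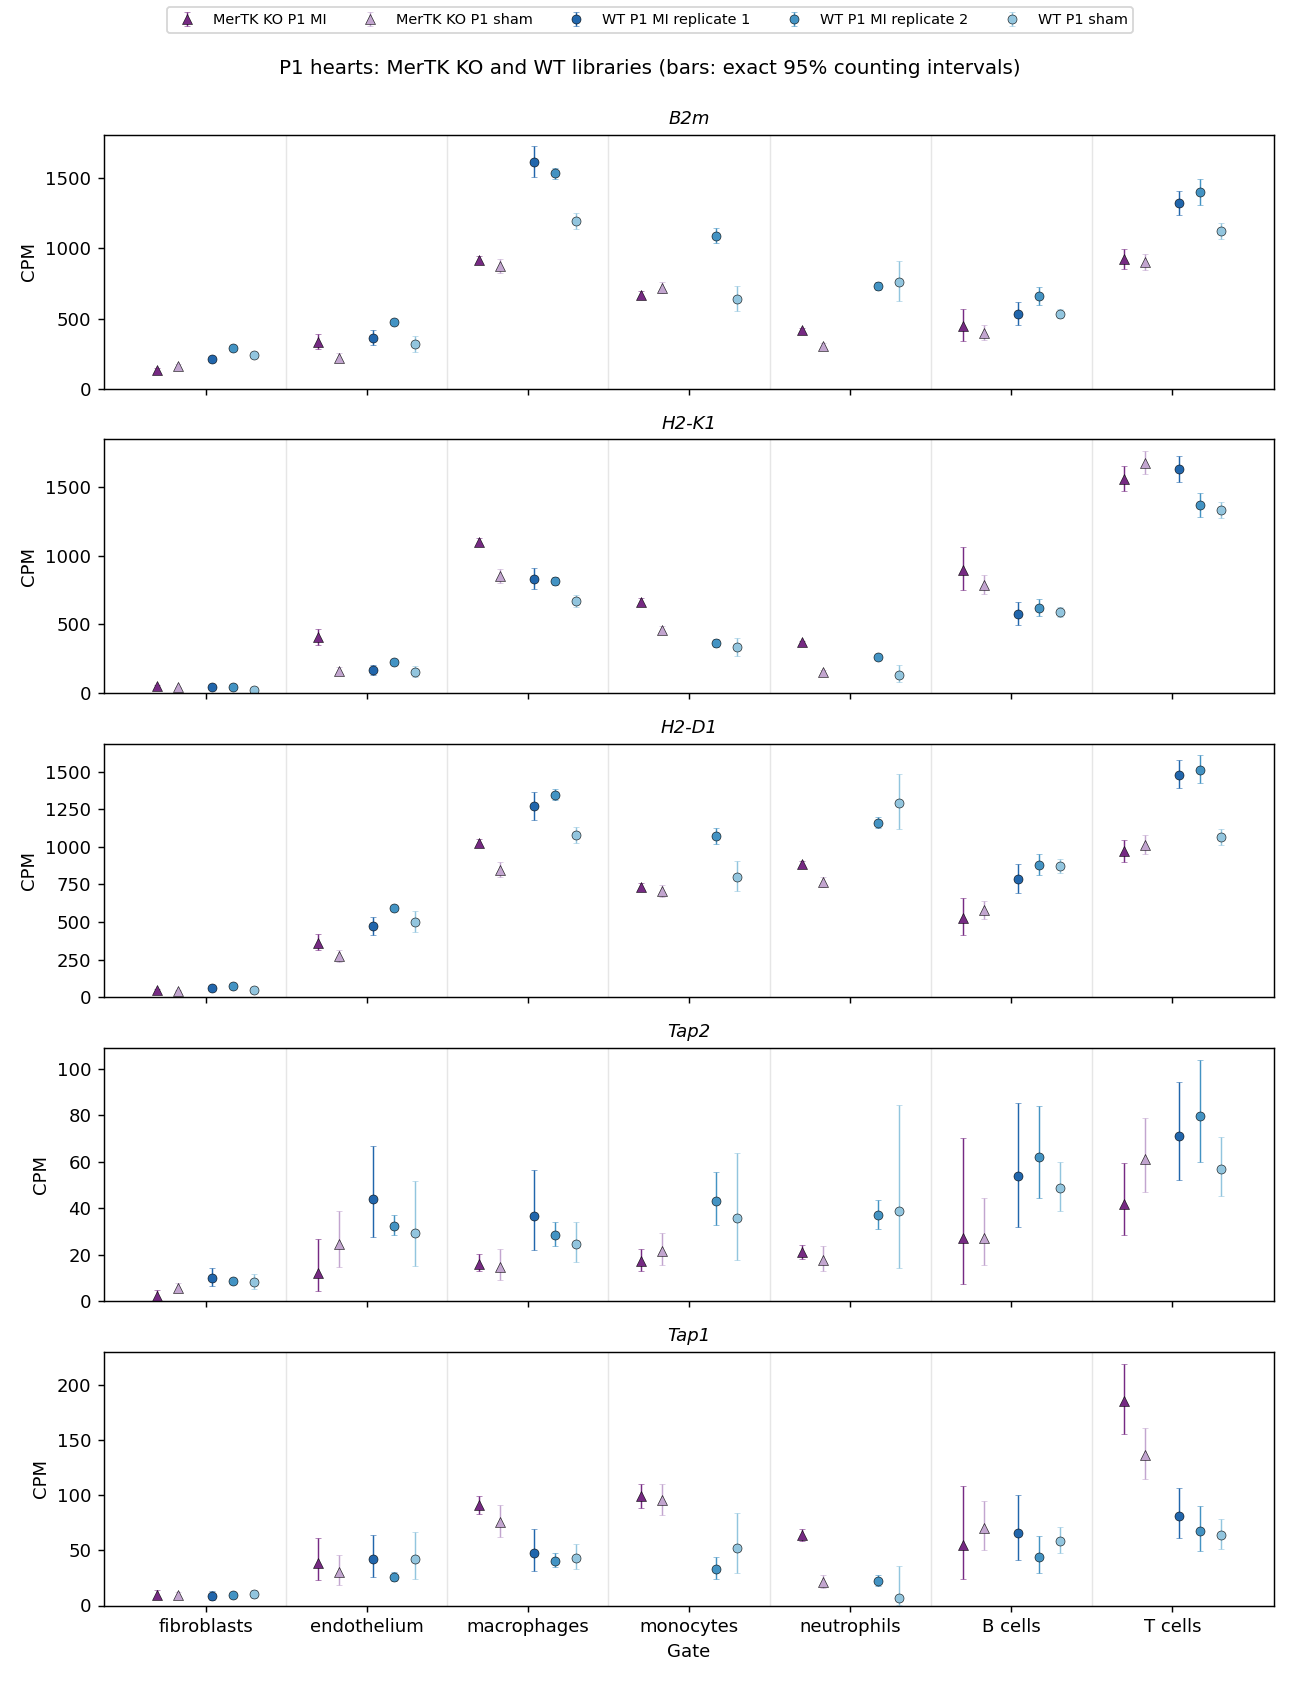
CPM of B2m, H2-K1, H2-D1, Tap2 and Tap1 in the MerTK KO P1 and WT P1 libraries across 7 cell types, with 1 point per library and exact 95% intervals for counting error. H2-D1 is lower in both MerTK KO libraries in 7 of 7 types, while H2-K1 is higher in 3.

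The MerTK KO libraries, 1 per treatment, gave untested ratios of MI to sham. In endothelium H2-K1 was at 2.54 (2.01 to 3.22) and Psmb8 at 3.21 (2.14 to 4.91) times sham, with 406 against 159.6 and 158 against 49.1 CPM. Fibroblast Psmb8 was at 1.96 (1.46 to 2.62) times sham. Fibroblast Tap2 was lower in MI, at 2.36 against 5.80 CPM, and leukocyte B2m barely differed (log2 ratio 0.009). On the log2(CPM + 1) scale, 2 of 8 genes were past 2-fold higher in endothelium and 0 lower, beside 4.53% and 12% of all genes. In fibroblasts 1 of 9 was higher and 1 lower, beside 2.35% and 4.35%. In leukocytes 0 of 10 were higher and 0 lower, beside 1.33% and 10.3%. Without injury, MerTK KO P1 sham had 0.719 (0.693 to 0.746) of the leukocyte B2m of WT P1 sham, 0.684 (0.625 to 0.749) of that in fibroblasts and 0.697 (0.549 to 0.885) of that in endothelium.

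H2-Q10 departed from the other 9 genes, being found mainly in neutrophils. It was at 555 CPM in WT 8 week sham neutrophils, 52.7 and 101 in those of MerTK KO P1 MI and sham, 54.7 in WT P1 MI replicate 2 and 272 in WT P1 sham, and at most 21.9 in any other leukocyte type of any library. At P1 the sham library was the higher one in both genotypes, while the first WT P1 MI library and the 8 week MI library held too few neutrophils to be read. Neutrophils held 55.3% to 75.0% of the leukocyte UMIs of H2-Q10 in the 6 libraries other than WT 8 week MI, while they held 2.59% to 35.3% of all leukocyte UMIs. WT 8 week MI had 5 gated neutrophils with 0 of its 22 leukocyte UMIs of H2-Q10. The leukocyte-wide value was 3.43 CPM in WT 8 week MI and 39.6 in WT 8 week sham, an untested ratio of 0.0867 (0.0542 to 0.132), and neutrophils were 0.182% and 8.93% of gated leukocytes in these libraries.

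**Figure D4:**
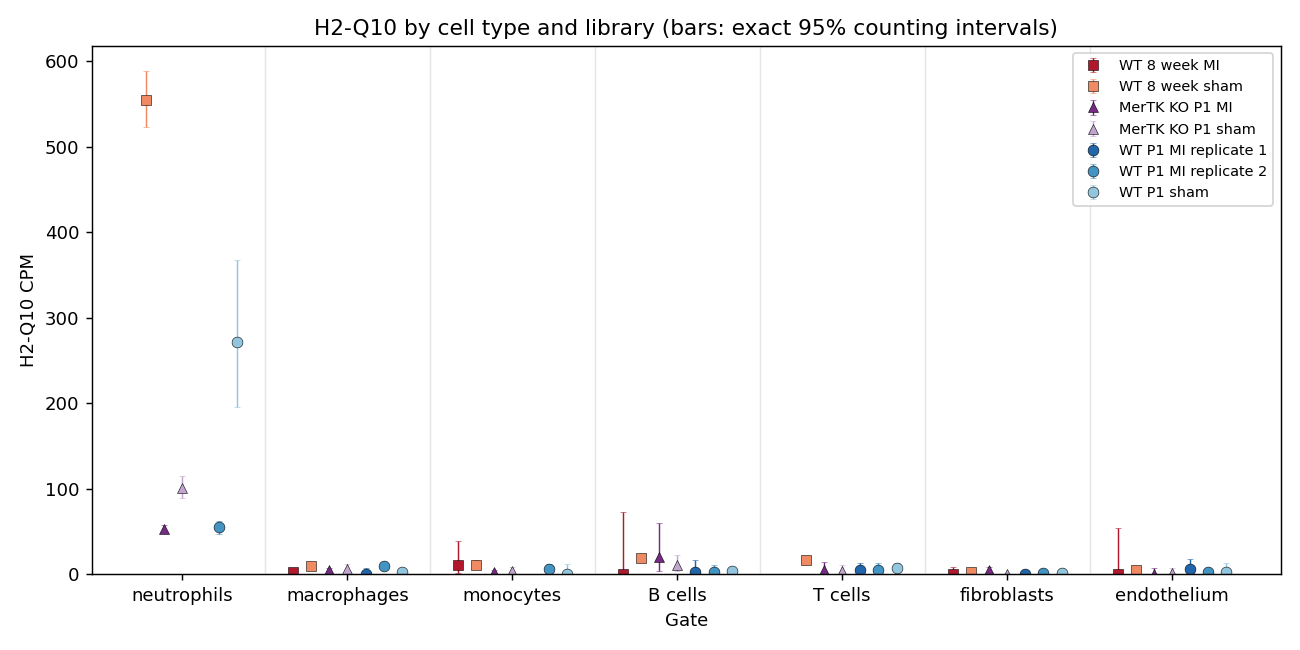
CPM of H2-Q10 by cell type and library, with exact 95% intervals for counting error. Neutrophils reach 52.7 to 555, and the points of the other plotted types stay at or below 20.5.

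Other genes of the route were described from lists. Of the class Ib heavy chains, 9 of the 10 listed were in the tables. In fibroblasts 3 of 7 tested rose with age (H2-Q7 by 2.99, H2-M3 by 2.96 and H2-T23 by 2.61 on the log2 scale), beside 4.2% of all genes. In endothelium 2 of 7 rose (H2-Q6 by 5.84 and H2-Q7 by 4.28), beside 2.01% of all genes. The same shares stand beside the later counts of listed genes that rose with age in these gates. H2-T23, the ligand of NKG2A, was at 17.3 CPM in WT 8 week MI fibroblasts against 104 in WT 8 week sham, and at 26.3 against 287 in leukocytes. These are single libraries of different Cell Ranger versions, and the difference was not tested. Of the other immunoproteasome and activator genes, 2 of 3 rose in both fibroblasts and endothelium: Psmb10, the remaining catalytic subunit, by 1.44 and 1.53, and the PA28 subunit Psme2 by 1.15 and 1.32. None of 14 constitutive proteasome genes and none of 5 other loading and trimming genes, such as Calr and Erap1, was called with age in any gate.

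Regulators went both ways. In fibroblasts Irf9 (1.32 ± 0.30), a factor of the type I interferon response, rose with age, while Irf1 (−1.68 ± 0.35), an activator of class I and immunoproteasome genes, and Irf8 (−3.25 ± 0.32) fell, among 11 tested. In endothelium Irf1 (−1.54 ± 0.40) and Irf8 (−2.003 ± 0.54) fell, among 9. Of all genes tested, 495 of 12527 were called lower with age in fibroblasts and 98 of 8157 in endothelium. The interferon gamma receptor chain Ifngr1 rose by 1.45 ± 0.35 in fibroblasts and 1.70 ± 0.35 in endothelium, 1 of 6 tested in each. Of 16 interferon response genes, 11 rose in fibroblasts, among them Ifit1 by 5.64, Oas1a by 5.14, Usp18 by 4.61 and Isg15 by 4.45, and 8 rose in endothelium, with medians of 2.99 and 1.90 beside −0.04 over all genes in both. Leukocytes had no call with age in any of these lists. In P1 fibroblasts after MI, 2 of the 16 rose, Iigp1 by 4.73 ± 0.87 and Isg15 by 2.08 ± 0.51, beside 0.599% of all genes.

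Irf1 was also lower in MerTK KO after MI. It was at 35.5 and 60.7 CPM in MerTK KO P1 MI and sham fibroblasts, against 119.8 and 152 in WT P1 MI and 102 in WT P1 sham, and at 75.8 and 73.7 in MerTK KO P1 MI and sham endothelium, against 407 and 375 in WT P1 MI and 359 in WT P1 sham. The groups did not overlap in either gate, and the log2 fold after MI was −1.90 ± 0.41 in fibroblasts (adjusted p = 0.00042) and −2.34 ± 0.55 in endothelium (adjusted p = 0.0022, edgeR's quasi-likelihood test). In leukocytes Irf1 overlapped, at 103 and 67.8 in MerTK KO P1 MI and sham against 67.5 to 89.0 in WT P1. Leukocyte Gbp2, a guanylate binding protein, was higher, at 195 and 91.6 in MerTK KO P1 MI and sham against 15.3 to 20.9 in WT P1 (log2 fold 3.75 ± 0.52, adjusted p = 0.0048, edgeR's quasi-likelihood test). Other listed genes called lower after MI were H2-T22 in fibroblasts, and H2-M3 and Irgm1 in endothelium. Of all genes, 1.12% were lower in fibroblasts, 0.711% lower in endothelium and 0.156% higher in leukocytes. Over all genes in endothelium, this comparison gave 213 calls, and 15 under DESeq2.

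Over the 21 sums of gate and library, 3108 genes with a mean of at least 50 CPM were set beside the summed level of B2m, H2-K1 and H2-D1 by correlation of log2(CPM + 1), as a description of sums that share libraries and gates. The most like it were AW112010 (Pearson r 0.944), the PA28 subunit Psme2 (0.934), leukotriene C4 synthase Ltc4s (0.925), Tmem179b (0.915) and Ifngr1 (0.904). AW112010 was at 1.18 to 60.6 CPM in fibroblasts, 24.1 to 1055 in endothelium and 106 to 668 in leukocytes.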

How the data were processed

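Single-cell 3′ RNA was measured in 7 libraries of digested mouse hearts. The deposited values are UMI counts per gene and cell, made by the authors with Cell Ranger, and per the file headers 5 libraries came from version 4.0.0 and 2 from version 6.1.0 (the second WT P1 MI library and the 8 week sham one), while the series text names 4.0.0 alone. The genome was GRCm38, per the submitters' processing notes, and free RNA correction or doublet removal before deposit is not stated there.

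Cells were required to hold 500 or more UMIs from 300 or more genes, of which mitochondrial genes gave no more than 15%. A cell entered the leukocyte, fibroblast or endothelial gate with UMIs of at least 3 of that lineage's markers and of at most 2 markers of any other lineage. A further limit held the markers of any other lineage to a small part of the number of its own. Many cells with markers of several lineages thus stayed out, but doublets may remain. Removal of the highest Scrublet scores, 0.8% per 1000 barcodes, was an alternative, since the automatic threshold marked 0% to 2.13% of cells. It left 8300 of the 9077 gated leukocytes in WT 8 week sham. Leukocyte types needed 3 markers and a lead of 2 over any other type. Libraries shared at most 47 barcodes (0.59%). The 2 WT P1 MI libraries differed beyond sampling noise, with a chi-square over its degrees of freedom of 60.7 in leukocytes, 23.1 in fibroblasts and 7.45 in endothelium.

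Counts were summed per gate and library and tested on all genes with edgeR 4.0.16 (quasi-likelihood test, TMM scaling, filterByExpr, Benjamini-Hochberg) in R 4.3.3. The same script was first run on simulated counts, with 1 fixed spread for all genes and changes only in genes of higher level. That run does not show how the test performs on genes of low level or at the spread of these libraries. Comparisons that hold the WT P1 MI group used 1 fit of 6 groups with 1 residual degree of freedom, so lone libraries are assumed to vary like that pair. The age term over all libraries came from an additive fit of age, injury and genotype (3 residual degrees of freedom), and differences between cell types from 21 sums with library as a block (6 residual degrees of freedom). Calls needed an adjusted p under 0.05 with a log2 fold of 1 or more in either direction. SE is the log2 fold over the root of F. Groups of 1 library got no test but ratios with exact 95% intervals, which cover counting error only, as do all intervals here. Sums of fewer than 30 cells were left out. Cells were read with scanpy 1.11.5 and intervals computed with scipy 1.17.1. DESeq2 1.42.0 and other gates, filters and scalings were tried as alternatives.

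All 10 genes are named, and other lists by their called genes of largest change. Irf1 and Gbp2 levels by genotype, H2-T23 after MI and the gene AW112010 were singled out with their values in view. The members, lists, tests and alternatives were chosen with earlier results of these data known. 1 of the regulators on the lists is not reported here.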

Additional observations from a re-analysis of the deposited data

Results flagged for a closer look

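The change with MI in fibroblasts differed between the ages for Psmb8, by −2.13 ± 0.67 on the log2 scale (8 weeks minus P1, SE, adjusted p = 0.037, edgeR's quasi-likelihood test), with 1 library in every group but WT P1 MI.

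The change with age differed between cell types in 9 tests of the 10 genes, all by edgeR's quasi-likelihood test over 21 sums, with log2 differences ± SE. Fibroblasts exceeded leukocytes for Psmb9 by 3.33 ± 0.54, Psmb8 by 2.74 ± 0.36, H2-K1 by 2.72 ± 0.32, H2-D1 by 2.17 ± 0.27, Tapbp by 1.58 ± 0.30 (adjusted p = 0.0042) and Tap2 by 1.57 ± 0.38 (adjusted p = 0.023). Endothelium exceeded leukocytes for H2-K1 by 1.93 ± 0.32 and B2m by 1.33 ± 0.23. Fibroblasts exceeded endothelium for H2-D1 by 1.41 ± 0.28. Both 8 week libraries stood above all 5 P1 libraries for H2-D1 and B2m in every gate, while H2-K1, Psmb8, Psmb9, Tapbp and Tap2 overlapped between the ages in leukocytes.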

How the results depend on the processing

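No paired analysis was possible because only the WT P1 MI group carries replicate numbers. No log2 fold of the 10 genes that was called turned its sign. Of the log2 folds recomputed under the alternatives, 2268 kept their side of the threshold, 40 gained a call, 55 lost it and 12 moved without a test. Uncalled log2 folds did turn sign. The leukocyte age term of Tap1 was 0.16 with TMM and −0.13 under library size alone, and others turned in the same way. Where a count of called genes moved, the cause was not tested.

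In fibroblasts, MI at P1 gave 0 calls (1 in the main analysis) under DESeq2, the additive fit, a stricter gate and thinned cells, and 2 with a gate on marker UMIs. Genotype after MI gave 0 (main 1) under DESeq2, the additive fit, a gate without erythroid and cardiomyocyte markers, library size alone, a stricter gate and thinned cells, and 2 with a gate on marker UMIs. Injury by age gave 0 (main 1) under DESeq2, a gate without erythroid and cardiomyocyte markers, library size alone, a stricter gate and thinned cells, and 3 with a gate on marker UMIs. In leukocytes, age after MI gave 1 (main 0) under DESeq2, library size alone, no filter, a stricter cell filter, a stricter gate and thinned cells. Injury by age gave 1 (main 0) under Scrublet removal, a gate without erythroid and cardiomyocyte markers, library size alone, no filter, a stricter cell filter, a stricter gate and thinned cells. Age over all libraries gave 1 (main 0) in B cells and 2 under DESeq2. In endothelium, age after MI gave 5 (main 3) under library size alone and 1 with no filter or thinned cells, and age over all libraries gave 3 (main 7) with thinned cells. Between cell types, endothelium minus leukocytes gave 6 (main 2) with B cells, 5 under library size alone and 0 with thinned cells. Fibroblasts minus endothelium gave 2 (main 1) with B cells, DESeq2, a gate without erythroid and cardiomyocyte markers, no filter or without the MerTK KO libraries, and 0 under library size alone or a stricter gate. Without one WT P1 MI library in turn, age over all libraries gave 5 to 6 (main 7) in fibroblasts and 4 to 5 (main 7) in endothelium, and the cell type differences gave 5 to 6 (main 6), 1 to 2 (main 2) and 0 to 1 (main 1). The group fit then has no residual degrees of freedom and gives values with no test.

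Over all genes, calls with age over all libraries were 1021 in fibroblasts (273 to 2031 under alternatives), 262 in endothelium (45 to 653) and 7 in leukocytes (0 to 422). After MI they were 1862 (747 to 2790), 174 (64 to 462) and 829 (41 to 1689) in the same order, with MI at P1 86 (8 to 302), 44 (0 to 86) and 1 (0 to 121), and with genotype after MI 328 (63 to 1595), 213 (15 to 263) and 70 (2 to 463). Injury by age gave 558 (133 to 861), 32 (19 to 160) and 89 (0 to 493), and injury by genotype 41 (5 to 149), 10 (0 to 63) and 11 (0 to 76). The cell type differences gave 591 (257 to 998) for fibroblasts minus leukocytes, 118 (36 to 349) for endothelium minus leukocytes and 68 (26 to 395) for fibroblasts minus endothelium.

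TMM moved the median of all genes against library size alone by over 0.1 on the log2 scale in leukocytes (0.21 to 0.46, injury by age apart), in endothelium for age after MI (−0.32), injury by age (−0.35) and injury by genotype (0.13), in fibroblasts for injury by age (−0.18) and injury by genotype (0.15), and between cell types (−0.38 to 0.13). The gates and lists that use macrophages or B cells in place of leukocytes, or drop erythroid and cardiomyocyte markers, were added after seeing the data. Depth limits WT 8 week MI endothelium (47 cells) and Nlrc5 outside leukocytes.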
